A study of Mus musculus with 12 samples.

Results

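The genes described here are 38 named members of the Nrf2, glutathione and thioredoxin antioxidant systems, out of 24391 gene symbols measured in mouse colon epithelium. They were chosen by function, as an Nrf2-pathway set, by a rule that uses no measured value but was written with earlier results of these data known. All 38 were found in the files and all 38 passed the filter on low values, which left 12052 genes for testing. RNA was sequenced from epithelial cells scraped from the colon of C57BL/6 mice aged 18 weeks, after removal of the proximal segment and of any tumours in its right portion. The 3 groups of 4 libraries, replicates 0 to 3, were Control, AOMDSS (given AOM and DSS, called AOM/DSS below) and AOMDSSCurcumin (given AOM and DSS and treated with curcumin, called the curcumin group below). AOM is azoxymethane, a carcinogen that targets the colon, DSS is dextran sulfate sodium, which injures the colon lining and causes colitis, and curcumin is a polyphenol from turmeric. No group received curcumin without AOM and DSS, and the labels give no doses. Tumours of the right portion are not in the material, so these values describe scraped epithelium and not those tumours. The labels do not say which animals the libraries came from, so the p-values measure the spread between these libraries.

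Nrf2, the product of Nfe2l2, is a transcription factor that switches on antioxidant and detoxifying enzymes. In resting cells Keap1 holds it for degradation. Electrophiles and oxidants modify cysteines of Keap1, and Nrf2 then accumulates, pairs with small Maf proteins and binds antioxidant response elements near its target genes, where the repressor Bach1 competes. The targets make glutathione, keep thioredoxin and peroxiredoxins reduced, remove quinones, haem and free iron, and supply the NADPH that these reactions use. In the colon these enzymes meet dietary electrophiles, bacterial products and the oxidants of inflammation.

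The libraries held between 5567988 and 15968416 reads assigned to genes. Levels are FPKM as the authors deposited them, reads scaled by gene length and by a factor for each library. Recovered from the values, this factor equalled in every library a median-ratio factor, the median over genes of reads divided by the gene's geometric mean. It did not strictly follow total reads: curcumin replicate 0 had 10106013 reads and a factor of 0.8489, and control replicate 0 had 9849671 and 0.9332. The libraries differed in base composition: in 5 of them GC-rich genes stood high, namely replicates 0 and 1 of the curcumin group, replicates 0 and 1 of AOM/DSS and replicate 0 of control, and in the other 7 they stood low. These are called GC-rich and AT-rich libraries below. Every group held both kinds, and only 1 control library was GC-rich. The 8 epithelial markers (Epcam, Cdh1, Krt8 and others) were all tested, with summed levels of 6472 to 9968 FPKM in control, 6055 to 9039 in AOM/DSS and 6091 to 10554 in the curcumin group. Markers of other cells were present at lower and uneven levels, and none of those that could be tested passed in any comparison. Many could not be tested, being too low or absent from the data. For neutrophils 2 of 7 markers were tested, for T and NK cells 3 of 7 and for fibroblasts 2 of 6. For smooth muscle 3 of 6 were tested and for endothelium 1 of 5. Summed red blood cell markers ranged from 59.4 to 327 FPKM in control, from 18.0 to 326 in AOM/DSS and from 26.5 to 37.7 in the curcumin group. Summed goblet cell markers (Muc2, Tff3, Zg16 and others) ranged from 3308 to 4580 FPKM in control, from 3912 to 5795 in AOM/DSS and from 5397 to 7091 in the curcumin group, so that no curcumin library overlapped a control library. Their part in the results below was not tested. In such bulk samples, fewer cells of a type and less RNA per cell cannot be told apart.

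Most of the antioxidant genes had a higher mean in the curcumin group than in either other group, and Gclc and Nqo1 passed the test. Gclc, the catalytic subunit of the enzyme that makes the first step of glutathione, rose against AOM/DSS, and Nqo1, a quinone reductase, rose against control. AOM/DSS alone moved no member past the threshold: its highest differences from control were those of Me1, Gpx2 and Blvrb and its lowest those of Prdx6, Ugdh, Maff and Gclc. Of these, Me1 passed the filter on low values only through the treated libraries, so its place in this order is no separate support. For 24 of the 38 members the highest of the 12 libraries was a curcumin library, for 8 a control and for 6 an AOM/DSS library, whereas the lowest was a control for 22, an AOM/DSS library for 12 and a curcumin library for 4. Much of this rests on single GC-rich libraries: curcumin replicate 0 held 15 of the highest values and control replicate 0 held 11 of the lowest. The same counts over all genes were not made, so these only describe the members. The 3 comparisons share libraries, so they are set side by side and not counted as separate evidence.

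A gene was called when its Benjamini-Hochberg adjusted p was below 0.05 in limma, a linear model fitted to log2(FPKM + 1) of all 12052 genes in all 12 libraries. Fold changes below are differences on that scale, which understate the change of low genes. In AOM/DSS against control, 0 of 38 members were called, beside 1.27% of all genes, and the same fit on recovered reads (limma voom) also called 0. At an unadjusted p below 0.05, 4 members were higher, beside 6.31% of all genes, and 2 were lower, beside 7.15%. In curcumin against AOM/DSS, 1 of 38 was called, beside 1.08% of all genes, and 9 were higher at an unadjusted p below 0.05, beside 7.59%, with 1 lower, beside 6.86%. In curcumin against control, 1 of 38 was called, beside 0.141% of all genes, and 12 were higher at an unadjusted p below 0.05, beside 5.87%, with 0 lower, beside 6.3%. These counts include Me1, which passed the filter only through the treated libraries; without it 3 of 37 were higher in AOM/DSS than in control and 11 of 37 were higher in the curcumin group than in control.

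The median member difference was 0.11 in AOM/DSS relative to control, 0.19 in the curcumin group relative to AOM/DSS and 0.27 in the curcumin group relative to control, beside medians of 0.02, -0.01 and 0.01 over all genes tested. Members above 0 numbered, in this order, 22, 29 and 31 of 38, beside 52.8%, 49.1% and 52.5% of all genes. Without Me1 they were 21, 28 and 30 of 37. The counts that follow include Me1. Curcumin replicate 0 held the highest value of 15 members. Without it 24 of 38 were above 0 against AOM/DSS, beside 48.2% of all genes, and 29 against control, beside 51.6%. At an unadjusted p below 0.05, 6 members were then higher than in AOM/DSS, beside 6.28%, and 8 were higher than in control, beside 4.47%. Leaving out curcumin replicate 1 also took the second of these counts to 8, beside 4.24%. Within the AT-rich libraries alone, 24 members were above 0 in both curcumin comparisons, beside 48.4% and 49.6% of all genes. There 1 member had an unadjusted p below 0.05 and a higher level than in AOM/DSS, beside 4.57% of all genes, and 4 had one above control, beside 3.77%. Within the GC-rich libraries alone these counts were 10, beside 5.99% of all genes, and 16, beside 6.07%, but the second of them sets 2 curcumin libraries against 1 control library, which is assumed to vary like the others.

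**Figure D1:**
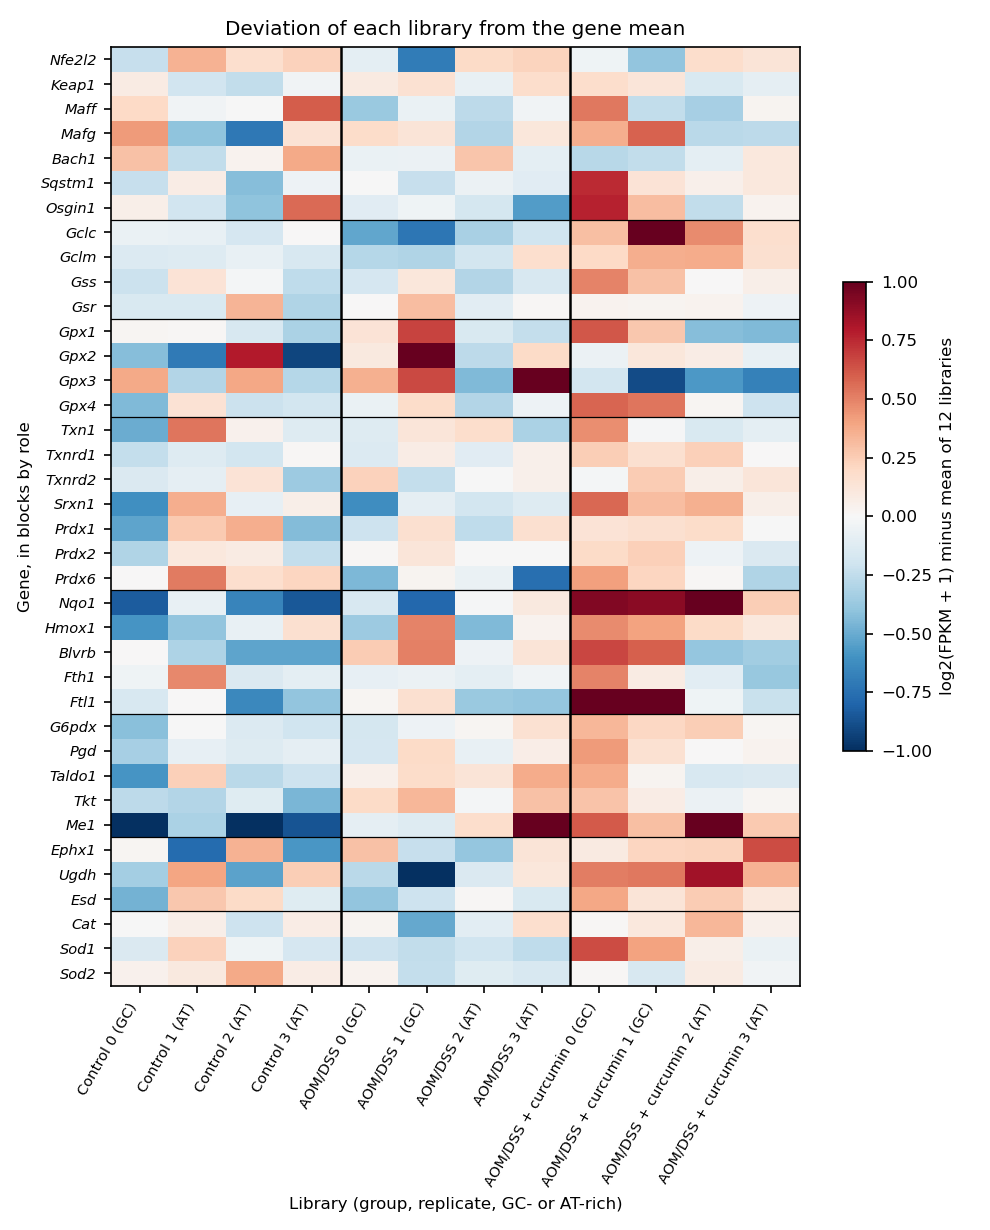
Each cell gives a gene's log2(FPKM + 1) in 1 library minus its mean over the 12 libraries (red higher, blue lower, colour ending at -1 and 1), with genes in blocks by role and libraries grouped by treatment and marked as GC-rich or AT-rich. Curcumin replicates 0 and 1 hold the most red cells, with 33 and 32 of 38 members above their own means, followed by replicate 2 with 24, and by replicate 3 and AOM/DSS replicate 3 with 21 each. AOM/DSS replicate 2 has 7 and control replicate 0 has 11.

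**Figure D2:**
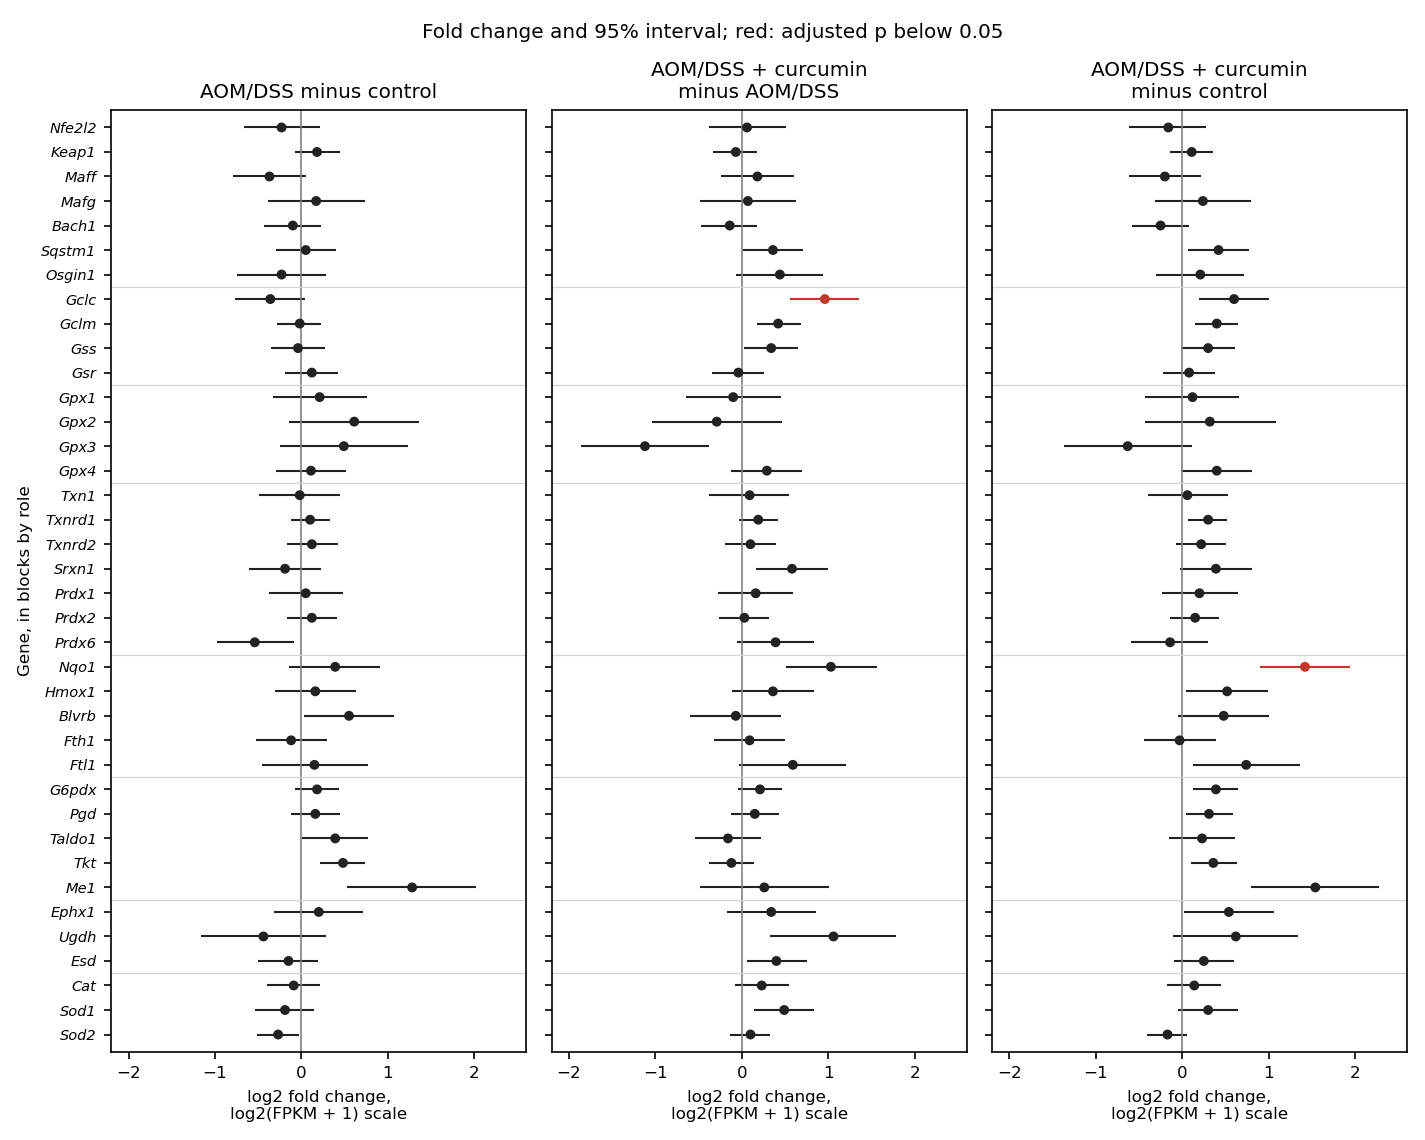
Points are log2 fold changes on the log2(FPKM + 1) scale with 95% intervals from limma for all 38 genes in the 3 comparisons. The 2 red points passed the threshold: Gclc in curcumin against AOM/DSS at 0.96 and Nqo1 in curcumin against control at 1.42.

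The letters of the antioxidant response element were looked for in the promoters, since Nrf2 is known to find its targets by them. RefSeq promoter windows (mouse build GRCm38.p6, 250 bases before to 50 bases after the gene start) matched 34 of the 38 genes by symbol; the others are Gsr, Gclc, Hmox1 and Prdx6. The core TGACNNNGC, or GCNNNGTCA on the other strand, was present for 12 of the 34 genes (35.3%), beside 14% of 27025 genes with a window. It occurred in Nfe2l2, Maff, Mafg, Gclm, Txnrd1, Srxn1, Prdx1, G6pdx, Pgd, Me1, Ugdh and Sod1. Counted by window, it was in 26.7% of 45 member windows, beside 12.4% of 32851. The AP-1 letters TGANTCA, which read the same on both strands, lie inside the matches of Prdx1 and Me1. They were present in 8.89% of member windows, beside 7.81% of all windows. By gene they were present for 4 of the 34 (11.8%), Osgin1, Srxn1, Prdx1 and Me1, beside 8.97% of all genes with a window. A match describes letters and not binding. The stretches that follow are the matches of genes whose levels are given in every library below, read 5′ to 3′ on the gene's strand with the core in capitals and 10 bases on each side. Distances are from an annotated start, of which some genes have several.
Nfe2l2, 240 bases before the start (chr2:75704885-75704913, minus strand): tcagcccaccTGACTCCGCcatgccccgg
Maff, 112 bases before the start (chr15:79346499-79346527, plus strand): gggcgtctcaTGACTCTGCcactggaaag
Gclm, 134 bases before the start (chr3:122245413-122245441, plus strand): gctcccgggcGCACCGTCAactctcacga
Txnrd1, 92 bases before the start (chr10:82859104-82859132, plus strand): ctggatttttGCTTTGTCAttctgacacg
Srxn1, 29 bases after the start (chr2:152105542-152105570, plus strand): gcagtgggcaGCTAGGTCAgagtgagaca
Me1, 6 bases before the start (chr9:86695902-86695930, minus strand): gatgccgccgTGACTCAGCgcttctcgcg
G6pdx, 57 bases before the start (chrX:74428919-74428947, minus strand): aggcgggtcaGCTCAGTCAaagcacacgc
Pgd, 4 bases after the start (chr4:149166061-149166089, minus strand): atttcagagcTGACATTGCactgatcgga
Ugdh, 132 bases before the start (chr5:65435956-65435984, minus strand): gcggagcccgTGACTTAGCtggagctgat
Ugdh, 94 bases before the start (chr5:65435918-65435946, minus strand): tcctcaagggGCGTGGTCAtacagttcgg
Sod1, 56 bases before the start (chr16:90220696-90220724, plus strand): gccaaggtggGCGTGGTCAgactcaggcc
Nqo1, a target gene called here, has no match in its window, of which the 250 bases before the start (chr8:107403206-107403455, minus strand) are shown because its level was the most raised of the members called. This says only that these letters are not in this stretch.
Nqo1: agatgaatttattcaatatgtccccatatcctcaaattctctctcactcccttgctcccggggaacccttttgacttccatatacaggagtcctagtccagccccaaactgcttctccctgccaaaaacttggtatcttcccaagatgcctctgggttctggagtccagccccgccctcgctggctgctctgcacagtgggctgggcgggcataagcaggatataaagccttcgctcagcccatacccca

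The messages of the Nrf2 regulators themselves passed no test. Nfe2l2 stood at 86.1, 129, 114 and 118 FPKM in control replicates 0 to 3, at 94.1, 61.8, 115 and 118 in AOM/DSS and at 98.0, 76.7, 114 and 110.3 in the curcumin group. The groups overlapped, and the lowest library was AOM/DSS replicate 1. The log2 difference between curcumin and AOM/DSS was 0.06, with a 95% interval of -0.38 to 0.51, and that between curcumin and control was -0.16 (-0.61 to 0.28). Keap1 stood at 16.5, 13.4, 12.8 and 15.1 FPKM in control, at 16.6, 17.3, 14.6 and 17.6 in AOM/DSS and at 17.6, 16.9, 13.8 and 14.4 in the curcumin group. These groups overlapped too, with intervals of -0.33 to 0.18 for curcumin against AOM/DSS and -0.14 to 0.36 for curcumin against control. Nrf2 is regulated mainly through its protein, which was not measured.

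Maff, a small Maf partner of Nrf2, was at 12.05, 10.1, 10.4 and 16.3 FPKM in control, at 7.81, 9.90, 8.49 and 10.1 in AOM/DSS and at 15.4, 8.59, 8.02 and 10.6 in the curcumin group. The AOM/DSS libraries lay below every control library, as did 3.63% of all genes, but the highest of them was close to the lowest control, and the difference of -0.37 ± 0.19 (SE) had an adjusted p of 0.433. Mafg, a second small Maf, and Bach1 had group means of 5.72 to 6.84 and 11.4 to 13.9 FPKM, with overlapping groups in each comparison. Osgin1, an oxidative stress response gene, had means of 23.1 ± 7.35 (SD, n = 4) FPKM in control, 19.04 ± 2.98 in AOM/DSS and 26.9 ± 8.66 in the curcumin group, within the spread between libraries.

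Sqstm1 encodes p62, which binds Keap1 and takes it to autophagy. Its level was 116, 144, 101 and 132 FPKM in control, 136, 116, 131 and 126 in AOM/DSS and 229, 150.3, 142 and 147 in the curcumin group. All curcumin libraries lay above all AOM/DSS libraries, as did 4.95% of all genes, and replicate 0 stood far above the other three. The difference from AOM/DSS was 0.36 ± 0.16 (SE) with an adjusted p of 0.322, and that from control was 0.42 ± 0.16 with an adjusted p of 0.329, neither past the threshold. The exons of Sqstm1 share 17.3% of their bases with Mrnip on the opposite strand, and the counting is not stated to use strand.

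Glutathione synthesis held the clearest difference between curcumin and AOM/DSS. Gclc stood at 28.2, 28.1, 26.3 and 29.6 FPKM in control, at 20.4, 17.6, 23.4 and 25.7 in AOM/DSS and at 36.7, 66.4, 41.4 and 33.4 in the curcumin group. The 3 groups did not overlap: AOM/DSS was lowest, control was in between and narrow, and the curcumin group was highest, with replicate 1 far above the rest. The curcumin mean of 44.5 ± 14.99 (SD, n = 4) was 2.04 times the AOM/DSS mean of 21.8 ± 3.57. This difference of 0.96 ± 0.19 (SE) passed the threshold in limma, with an adjusted p of 0.0284. The call was lost without AOM/DSS replicate 0 (adjusted p 0.0658), AOM/DSS replicate 1 (0.0592), curcumin replicate 0 (0.0514) or curcumin replicate 2 (0.0781), after rescaling each library to a common FPKM sum (0.0603), without the filter on low values (0.0516) and in a fit of the 2 groups alone (0.0829). It was also lost in the GC-rich (0.231) and the AT-rich libraries alone (0.322), where the differences were 1.34 and 0.58. Over 27 alternatives the adjusted p ran from 0.0186 to 0.322, and the difference from 0.58 to 1.34. Against control the curcumin difference was 0.60 ± 0.19, with an adjusted p of 0.217, and 3.72% of all genes were free of overlap in this direction. AOM/DSS stood -0.36 ± 0.19 from control, with an adjusted p of 0.427.

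Gclm, the modifier subunit that makes the Gclc enzyme efficient, was at 32.7, 32.98, 34.3 and 32.1 FPKM in control, at 29.4, 29.2, 31.7 and 40.8 in AOM/DSS and at 41.5, 46.8, 47.1 and 40.5 in the curcumin group. Every curcumin library stood above every control library, while AOM/DSS replicate 3 exceeded the lowest curcumin value. The differences were 0.42 ± 0.12 (SE) from AOM/DSS, with an adjusted p of 0.116, and 0.40 ± 0.12 from control, with an adjusted p of 0.199. Without AOM/DSS replicate 3 the first of these was 0.53 and passed, with an adjusted p of 0.0461 in limma. Gss, which adds glycine to complete glutathione, was at 105, 134, 119.7 and 102 FPKM in control, at 108, 132, 99.3 and 109 in AOM/DSS and at 172, 149, 122 and 127 in the curcumin group. AOM/DSS replicate 1 lay above the lower curcumin libraries, and the difference of 0.34 ± 0.14 had an adjusted p of 0.288. Its exons share 15.4% of their bases with genes on the opposite strand, Acss2 among them. Gsr, which reduces oxidised glutathione, had means of 42.6 ± 9.08, 45.9 ± 6.01 and 44.4 ± 1.39 FPKM (SD, n = 4) in control, AOM/DSS and curcumin, with an interval of -0.34 to 0.26 for the curcumin difference from AOM/DSS.

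**Figure D3:**
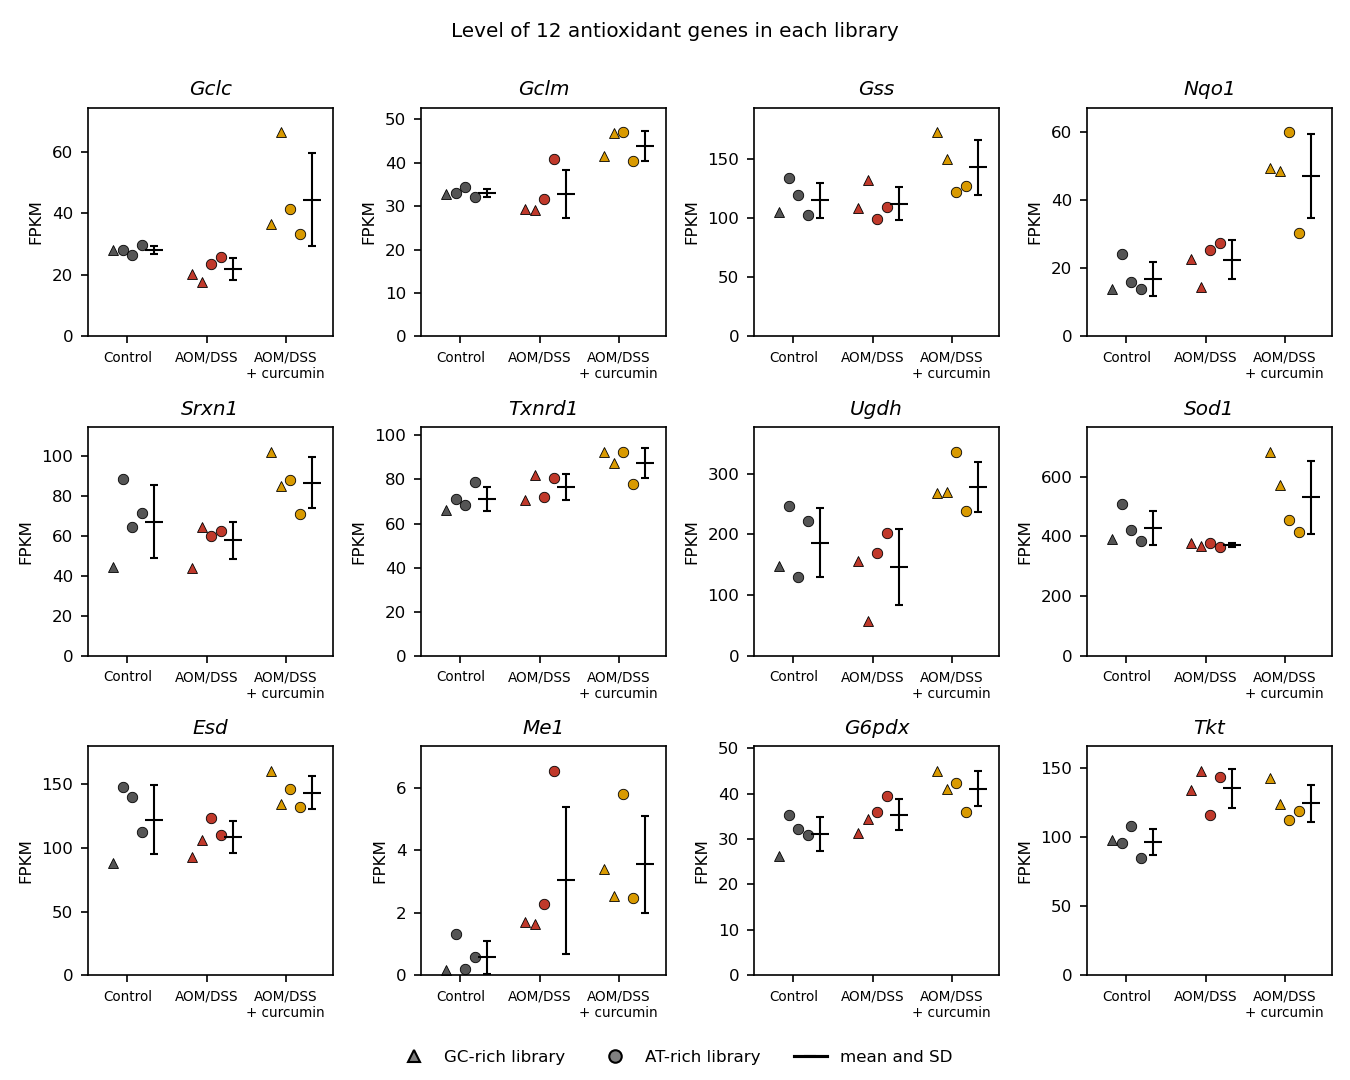
FPKM of 12 of the genes in each library on axes that start at 0, with triangles for GC-rich and circles for AT-rich libraries, and bars for the mean and SD of 4 libraries. Gclc and Nqo1 are highest in the curcumin group without overlap with either other group, Tkt and Me1 lie above control in both treated groups, and Sod1 is narrow in AOM/DSS at 364 to 378 FPKM. Me1 passed the filter on low values only through the treated libraries.

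The glutathione peroxidases use glutathione to reduce peroxides. All 4 had a higher mean log2 level in AOM/DSS than in control, as did 52.8% of all genes. In the curcumin group 1 of 4 had a higher one than in AOM/DSS, as did 49.1% of all genes. In either comparison 0 were called, beside 1.27% and 1.08% of all genes. Gpx3, the secreted peroxidase of plasma, was at 3.72, 1.95, 3.73 and 1.96 FPKM in control, at 3.63, 4.71, 1.67 and 9.76 in AOM/DSS and at 2.18, 0.945, 1.43 and 1.27 in the curcumin group. The curcumin values were the lowest on average and overlapped AOM/DSS only through its replicate 2. The difference of -1.12 ± 0.34 (SE) from AOM/DSS had an adjusted p of 0.156, and without AOM/DSS replicate 2 it was -1.44 and passed, with an adjusted p of 0.0394 in limma. These values rest on 14 to 221 reads per library. Summed fibroblast markers, beside it, were 2.47 to 22.5 FPKM in AOM/DSS and 0.344 to 4.46 in the curcumin group. Of the AOM/DSS libraries, replicate 3 was highest in them as in Gpx3. It was also highest in the summed markers of macrophages and dendritic cells, of smooth muscle and of endothelium. The epithelial, goblet cell, neutrophil and red blood cell sums were highest in replicate 1, and those of B and T cells in replicate 2. The part of these cells was not tested.

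Gpx2, the peroxidase typical of gut epithelium, ranged from 183 to 601 FPKM in control, from 289 to 776 in AOM/DSS and from 328 to 375 in the curcumin group. Its differences of 0.61 (-0.14 to 1.36) for AOM/DSS against control and -0.29 (-1.04 to 0.46) for curcumin against AOM/DSS lay within that spread. Gpx1, the abundant cytosolic form, had means of 244 ± 26.6, 291 ± 89.6 and 276 ± 102 FPKM (SD, n = 4) in control, AOM/DSS and curcumin. Gpx4, which protects membrane lipids and guards against ferroptosis, had means of 83.1 ± 14.5, 89.6 ± 12.3 and 112 ± 29.4. Its curcumin values were 139 and 135 in the GC-rich libraries and 93.8 and 80.1 in the AT-rich ones. Gpx2 and Gpx4 each have a pseudogene named after them in the annotation, which may share reads with them.

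In the thioredoxin system all 7 members had a higher mean log2 level in the curcumin group than in AOM/DSS, from 0.03 to 0.58. After either rescaling of the libraries 6 of 7 did. Over all genes 49.1% were higher. Of the 7, 0 were called, beside 1.08% of all genes, and 1 was higher at an unadjusted p below 0.05, beside 7.59%. That member, Srxn1, encodes sulfiredoxin, which repairs over-oxidised peroxiredoxins. It was at 44.4, 88.4, 64.6 and 71.3 FPKM in control, at 44.1, 64.3, 60.1 and 62.5 in AOM/DSS and at 102, 85.1, 87.9 and 71.2 in the curcumin group. The curcumin libraries lay above all AOM/DSS libraries, while control replicates 1 and 3 reached into their range. The difference from AOM/DSS was 0.58 ± 0.20 (SE), with an adjusted p of 0.191.

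Txnrd1, the cytosolic reductase that returns electrons from NADPH to thioredoxin, was at 65.9, 71.2, 68.5 and 78.7 FPKM in control, at 70.7, 82.1, 72.1 and 80.9 in AOM/DSS and at 92.7, 87.3, 92.3 and 78.0 in the curcumin group. Curcumin replicate 3 fell just under the top control library and the other three were above all controls. The difference from control was 0.30 ± 0.11 (SE), with an adjusted p of 0.278. Its mitochondrial relative Txnrd2 had means of 6.22, 6.86 and 7.38 FPKM, and Txn1, thioredoxin itself, 726, 697 and 746, in control, AOM/DSS and curcumin. The peroxiredoxins Prdx1 and Prdx2, which reduce peroxide with thioredoxin, had means of 333 to 370 and of 224 to 248 FPKM over the groups.

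Prdx6, a peroxiredoxin that draws on glutathione, had the highest mean level per length of the 38 genes. It was at 1316, 1883, 1481 and 1527 FPKM in control, at 964, 1344, 1255 and 781 in AOM/DSS and at 1745, 1523, 1328 and 1069.5 in the curcumin group. Only AOM/DSS replicate 1 reached the control range, by passing control replicate 0. The AOM/DSS difference from control was -0.54 ± 0.21 (SE), with an adjusted p of 0.268 that missed the threshold. A pseudogene named after Prdx6 may share its reads.

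Among the quinone, haem and iron genes Nqo1 had the strongest difference. It was at 13.9, 24.2, 15.8 and 13.7 FPKM in control, at 22.8, 14.4, 25.3 and 27.4 in AOM/DSS and at 49.5, 48.5, 59.9 and 30.4 in the curcumin group. Every curcumin library lay above all libraries of the other groups, with replicate 3 the lowest of them, and AOM/DSS overlapped control. The curcumin mean of 47.1 ± 12.3 (SD, n = 4) was 2.78 times the control mean of 16.9 ± 4.96 and 2.096 times the AOM/DSS mean of 22.5 ± 5.68. The difference from control was 1.42 ± 0.24 (SE) and passed in limma, with an adjusted p of 0.0447.

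That Nqo1 call was near the threshold. It was lost without control replicate 0 (adjusted p 0.135), 2 (0.0625) or 3 (0.159), without AOM/DSS replicate 0 (0.0566) or 2 (0.0643), and without curcumin replicate 0 (0.136), 1 (0.0977) or 2 (0.166). It was also lost with a pseudocount of 0.1 (0.0507), without the filter (0.094), without the intensity trend (0.0503), and in the GC-rich (0.499) and the AT-rich libraries alone (0.408). Over 27 alternatives the difference ran from 1.25 to 1.75 and the adjusted p from 0.0122 to 0.499. Against AOM/DSS the difference was 1.03 ± 0.24, with an adjusted p of 0.0647. It passed without control replicate 1 (0.0459) and without curcumin replicate 3 (0.0391), and with the GC group of the libraries as a covariate (0.0469) or the GC trend removed (0.0387). Within GC-rich libraries Nqo1 differed by 1.75 from control and by 1.38 from AOM/DSS, and within AT-rich libraries by 1.25 and 0.68.

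Hmox1, the inducible enzyme that opens the haem ring, was low, at 1.29, 1.62, 2.28 and 2.86 FPKM in control, at 1.68, 3.88, 1.55 and 2.55 in AOM/DSS and at 3.80, 3.57, 2.95 and 2.71 in the curcumin group. The groups overlapped, and the values rest on 13 to 75 reads per library. The curcumin difference from control was 0.52 ± 0.22 (SE), with an adjusted p of 0.360. It was 1.03 within GC-rich and 0.25 within AT-rich libraries. Blvrb, biliverdin reductase B, which acts on the product of haem breakdown and is abundant in red cells, was at 23.3, 18.6, 15.8 and 15.8 FPKM in control, at 28.0, 33.4, 22.4 and 25.5 in AOM/DSS and at 37.5, 35.8, 17.6 and 18.1 in the curcumin group. AOM/DSS was higher than control except for an overlap of its replicate 2 with control replicate 0. The difference of 0.55 ± 0.24 had an adjusted p of 0.3399. The curcumin values split by base composition, high in replicates 0 and 1 and low in 2 and 3. Summed red blood cell markers were 59.4 to 327 FPKM in control, 18.0 to 326 in AOM/DSS and 26.5 to 37.7 in the curcumin libraries. Within AOM/DSS replicate 1 was highest both in them and in Blvrb, whereas within control replicate 1 was highest in them and replicate 0 in Blvrb. Their part was not tested.

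Ftl1 and Fth1, the ferritin chains that store iron, were among the most abundant members. Ftl1 was at 738, 829, 528 and 629 FPKM in control, at 838, 921, 638 and 631 in AOM/DSS and at 1709.8, 1646, 801 and 706 in the curcumin group. Both GC-rich curcumin libraries were high and both AT-rich ones lay inside the range of the other groups. The difference from control was 0.74 ± 0.28 (SE), with an adjusted p of 0.325, and it was 1.18 within GC-rich and 0.21 within AT-rich libraries. Ftl1 shares 34.6% of its exon bases with other annotated genes and has a named pseudogene, so its reads are uncertain. Fth1 had means of 838, 760.2 and 830.2 FPKM in control, AOM/DSS and curcumin, within the spread between libraries.

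Of the NADPH genes, Me1 passed the filter on low values only through the treated libraries and is described apart. The other 4 had a higher mean log2 level in AOM/DSS than in control, as did 52.8% of all genes, also after either rescaling of the libraries. Of these 4, 0 were called, beside 1.27% of all genes, and 2 were higher at an unadjusted p below 0.05, beside 6.31%. The same 4 were above control in the curcumin group, as were 52.5% of all genes. There 0 were called, beside 0.141%, and 3 were higher at an unadjusted p below 0.05, beside 5.87%. Tkt, transketolase of the pentose phosphate pathway, was at 97.7, 95.6, 108 and 85.3 FPKM in control, at 134, 148, 116 and 144 in AOM/DSS and at 143, 124, 112 and 119 in the curcumin group. Every library of both treated groups lay above every control, as did 2.38% of all genes for AOM/DSS and 3.72% for curcumin. The differences from control were 0.48 ± 0.12 (SE) for AOM/DSS, with an adjusted p of 0.0753, and 0.36 ± 0.12 for curcumin, with an adjusted p of 0.252.

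Me1, cytosolic malic enzyme, makes NADPH from malate. It was at 0.163, 1.32, 0.201 and 0.585 FPKM in control, at 1.71, 1.64, 2.27 and 6.53 in AOM/DSS and at 3.405, 2.55, 5.79 and 2.46 in the curcumin group. No treated library fell into the control range. The controls rest on 6, 24, 10 and 26 reads, and 8 treated libraries but 1 control were at or above 1 FPKM, so the gene passed the filter only through the groups in which it was high. The mean was 5.35 times control in AOM/DSS and 6.26 times in the curcumin group, and on the log2(FPKM + 1) scale the differences were 1.28 ± 0.34 (SE) and 1.54 ± 0.34, with adjusted p of 0.0939 and 0.101. The curcumin difference passed without AOM/DSS replicate 3 (adjusted p 0.049 in limma), the library with the highest value. With a pseudocount of 0.1 the 2 differences became 2.33 and 2.71.

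G6pdx, glucose-6-phosphate dehydrogenase, which opens the pentose phosphate pathway, was at 26.3, 35.3, 32.2 and 30.9 FPKM in control, at 31.4, 34.3, 36.02 and 39.5 in AOM/DSS and at 45.0, 41.1, 42.3 and 35.95 in the curcumin group. The curcumin libraries were above all controls, and the difference was 0.39 ± 0.12 (SE) with an adjusted p of 0.212. Pgd, the next NADPH-producing step, was at 130.4, 155, 151 and 155 FPKM in control, at 146, 188, 156 and 172 in AOM/DSS and at 221, 183, 165 and 169 in the curcumin group. It showed the same separation of curcumin from control, with a difference of 0.31 ± 0.13 and an adjusted p of 0.351. Taldo1, transaldolase, was at 170.0, 302, 213 and 223 FPKM in control, at 266, 292, 281 and 331 in AOM/DSS and at 333, 261, 229 and 232 in the curcumin group. Control replicate 1 lay inside the AOM/DSS range, and the AOM/DSS difference of 0.39 ± 0.18 had an adjusted p of 0.349. The exons of G6pdx share 13.6% of their bases with Ikbkg on the opposite strand.

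Of the other detoxifying genes, Ugdh makes the UDP-glucuronate used to conjugate foreign compounds. It was at 148, 247, 129 and 222 FPKM in control, at 155, 57.4, 169 and 202 in AOM/DSS and at 268, 271, 336 and 239 in the curcumin group. All curcumin libraries lay above all AOM/DSS libraries, of which replicate 1 was far the lowest, and control replicate 1 reached the curcumin range. The difference from AOM/DSS was 1.06 ± 0.33 (SE), with an adjusted p of 0.165, and it was 1.5 within GC-rich and 0.61 within AT-rich libraries. Esd, which hydrolyses S-formylglutathione in formaldehyde removal, was at 88.2, 148, 140.3 and 112 FPKM in control, at 93.2, 106, 124 and 110.2 in AOM/DSS and at 161, 135, 146 and 132 in the curcumin group. Curcumin and AOM/DSS did not overlap, and the difference of 0.40 ± 0.16 had an adjusted p of 0.266. Ephx1, microsomal epoxide hydrolase, was at 9.34, 4.97, 11.97 and 5.80 FPKM in control, at 11.4, 7.68, 6.81 and 10.1 in AOM/DSS and at 9.82, 10.8, 10.9 and 15.02 in the curcumin group. Control replicate 2 exceeded 3 of the 4 curcumin libraries, and the difference of 0.54 ± 0.24 had an adjusted p of 0.386.

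The superoxide dismutases, which turn superoxide into peroxide, were lowest in AOM/DSS. Sod1, the copper and zinc enzyme of the cytosol, was at 393, 509, 421 and 386 FPKM in control, at 377, 367, 378 and 364 in AOM/DSS and at 684, 574, 454 and 414 in the curcumin group. AOM/DSS was narrow and lay below every library of both other groups, and the GC-rich curcumin replicates 0 and 1 were above the AT-rich replicates 2 and 3. The curcumin difference from AOM/DSS was 0.49 ± 0.16 (SE), with an adjusted p of 0.178, and it was 0.75 within GC-rich and 0.23 within AT-rich libraries. The AOM/DSS difference from control was -0.19 ± 0.16, with an adjusted p of 0.648.

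Sod2, the mitochondrial manganese enzyme, was at 32.9, 34.1, 41.8 and 33.5 FPKM in control, at 32.6, 26.8, 29.2 and 28.5 in AOM/DSS and at 32.1, 28.5, 33.7 and 31.2 in the curcumin group. All AOM/DSS libraries were below all controls, though its replicate 0 was close to the lowest of them. The difference of -0.27 ± 0.11 (SE) had an adjusted p of 0.295. Cat, catalase, which breaks down hydrogen peroxide, had means of 37.97 ± 3.34, 36.1 ± 7.08 and 42.1 ± 4.37 FPKM (SD, n = 4) in control, AOM/DSS and curcumin, with overlapping groups.

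Every member difference given above with an adjusted p kept its sign within the GC-rich and within the AT-rich libraries: 9 of 9 between AOM/DSS and control, 10 of 10 between curcumin and AOM/DSS and 12 of 12 between curcumin and control. These differences were selected on the same libraries, so the shared sign is a description and no separate support. Both counts against control include Me1, which passed the filter only through the treated libraries. The sizes differed. In curcumin against AOM/DSS all 9 differences above 0 were larger in the GC-rich libraries, as the plot of differences within each kind of library shows, and the GC-rich control is a single library.

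**Figure D4:**
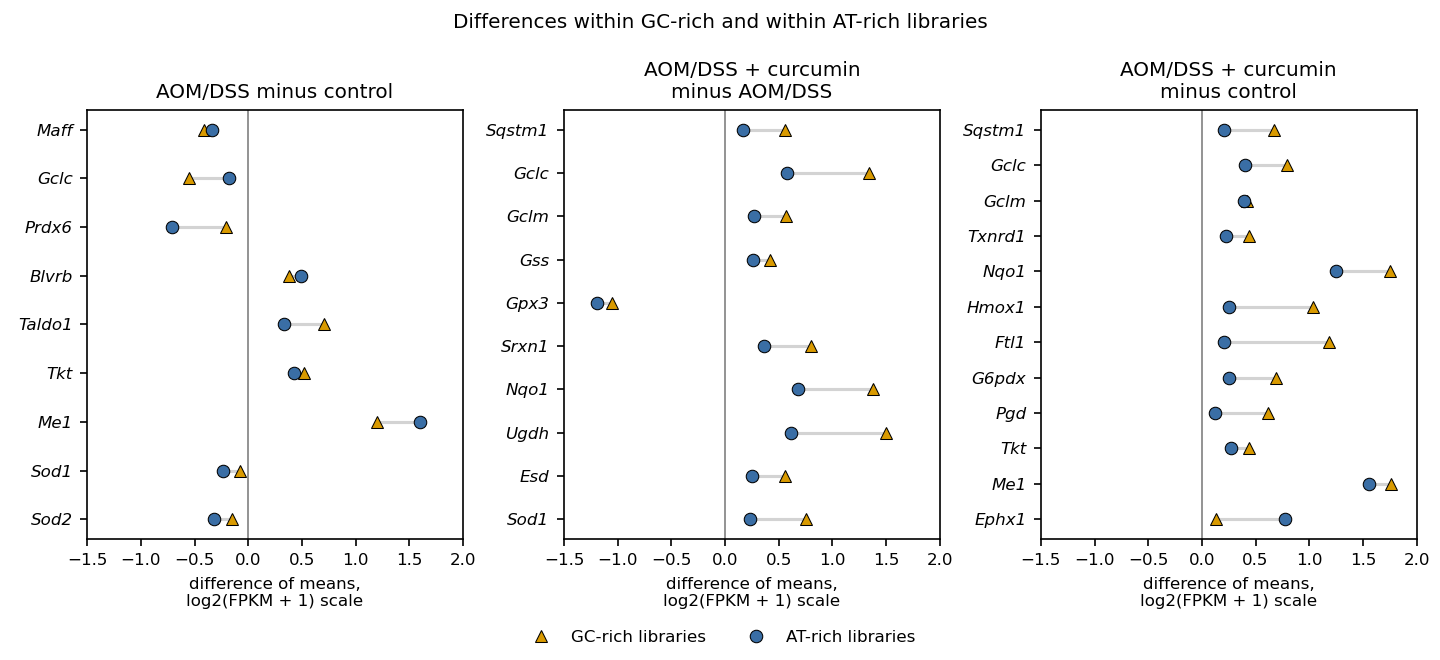
Differences of group means on the log2(FPKM + 1) scale, computed within the 5 GC-rich libraries (triangles) and within the 7 AT-rich libraries (circles). Each comparison shows only the members selected in it on these same libraries, by an unadjusted p below 0.05 in limma or by groups without overlap. Both marks lie on the same side of 0 for every gene shown, and they lie far apart for Ftl1 (1.18 and 0.21) and Hmox1 (1.03 and 0.25) in curcumin against control.

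Genes of the same pathway outside the 38, from a list of 59 symbols such as the glutaredoxins and Prdx3 to Prdx5, mostly passed no test. Of 53 tested, 0 were called in AOM/DSS against control, beside 1.27% of all genes. In each curcumin comparison 1 was called, Mgst2, which rose, with 0 lower, beside 1.08% of all genes called against AOM/DSS and 0.141% against control. At an unadjusted p below 0.05, 4 stood above control and 3 below it with AOM/DSS, beside 6.31% and 7.15% of all genes. In the curcumin group 9 were higher and 1 lower than in AOM/DSS, beside 7.59% and 6.86%, and 6 were higher and 2 lower than in control, beside 5.87% and 6.3%. Mgst2 encodes microsomal glutathione S-transferase, an enzyme that conjugates glutathione to lipophilic compounds. Its mean was 170.3 ± 26.5 FPKM (SD, n = 4) in control, 175 ± 15.3 in AOM/DSS and 325 ± 54.3 in the curcumin group. The difference was 0.88 ± 0.15 (SE) from AOM/DSS, with an adjusted p of 0.0149, and 0.93 ± 0.15 from control, with an adjusted p of 0.0383 in limma. The first call was lost without curcumin replicate 2 (0.0524). The second was lost without control replicate 0 (0.102) or 3 (0.128), AOM/DSS replicate 2 (0.0565), or curcumin replicate 0 (0.0917), 1 (0.0908) or 2 (0.140). Both were lost in the GC-rich (0.151 and 0.521) and in the AT-rich libraries alone (0.322 and 0.361), and the second also without the filter (0.0686) and with the 2 groups alone (0.0652). The median over the 53 genes was -0.03 between AOM/DSS and control, 0.06 between curcumin and AOM/DSS and 0.08 between curcumin and control.

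Several antioxidant enzymes carry selenocysteine, so selenoproteins and the genes that make them were listed too. This list is not separate from the others: it includes the members Gpx1 to Gpx4, Txnrd1 and Txnrd2, and shares Txnrd3 with the list above. Of 22 tested, the only call was Dio1, a deiodinase that acts on thyroid hormone. It fell in AOM/DSS against control, where 1.27% of all genes were called. Its mean was 114 ± 13.9 FPKM (SD, n = 4) in control, 67.2 ± 11.3 in AOM/DSS and 91.5 ± 19.6 in the curcumin group, a difference of -0.76 ± 0.17 (SE) with an adjusted p of 0.0471 in limma. The call was lost on leaving out any single library except curcumin replicate 0, with an adjusted p of 0.0574 to 0.169 in those fits, and also without the filter (0.0732), with the 2 groups alone (0.0815) and in the GC-rich (0.652) or AT-rich libraries alone (0.148).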

How the data were processed

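The authors deposited 1 table of FPKM values per library, with gene symbols and no counts. Per the submitters' processing notes, the build was mm9 and the tools named were featureCounts 1.5.1, TopHat2 2.1.1, R 3.4.0, DESeq2 1.14.1, Bowtie2 2.2.6 and Picard; their roles, the annotation and the strand setting are not given in the sources used here. The FPKM values of all 19233 genes above 0 were whole multiples of 1 read (tolerance 0.001), from which reads per library were recovered; 5158 symbols were at 0 throughout. Depth limits genes such as Me1, Gpx3 and Hmox1.

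Genes with at least 1 FPKM in at least 4 libraries were kept. limma 3.58.1 (R 4.3.3) was fitted to log2(FPKM + 1) with a mean per group over all 12 libraries, eBayes with intensity trend, two-sided, and Benjamini-Hochberg adjustment over 12052 genes. The fit was tested on simulated data with independent noise. Those data lacked the split of the libraries by base composition, so the test says nothing about its effect on the calls. Members were given in every library where the unadjusted p was below 0.05 or the groups did not overlap; Nfe2l2, Keap1 and Nqo1 were always given, and genes of the other lists only when called. Members, roles and lists were chosen with earlier results of these data known. GC content came from the longest GENCODE M21 transcript for 99.3% of genes tested, and a library was GC-rich where its deviations correlated positively with it. Promoters are RefSeq's on GRCm38.p6, not the files' build. The alternatives are 27 other settings, 12 of them leaving out a library and 2 (GC-rich or AT-rich libraries alone) chosen after seeing the data.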

Additional observations from a re-analysis of the deposited data

Results flagged for a closer look

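In 8 of 114 gene and group combinations, 1 library stood apart from the other three by more than Dixon's 95% critical value for the gap over the group's range; chance flags about 1 group in 20. Among regulators, Mafg in AOM/DSS replicate 2 was low at 4.75 FPKM (others 6.64 to 6.98), Bach1 in the same library was high at 15.4 (11.7 to 12), and Sqstm1 in curcumin replicate 0 was high at 229 (142 to 150.3). In the glutathione and thioredoxin systems, Gsr in curcumin replicate 3 was low at 42.3 FPKM (44.9 to 45.2) and Prdx2 in AOM/DSS replicate 1 was high at 257 (235 to 239). Fth1 in control replicate 1 was high at 1113 FPKM (720.5 to 772), a library whose summed epithelial, goblet cell, neutrophil and red blood cell markers were each the highest of the controls; their part was not tested. Me1 in AOM/DSS replicate 3 was high at 6.53 FPKM (1.64 to 2.27). Sod2 in control replicate 2 was high at 41.8 FPKM (32.9 to 34.1).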

How the results depend on the processing

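The 34 gene differences selected on these libraries (31 of members, the others of Mgst2 and Dio1) kept their direction under all 27 alternatives that gave a value. As they were selected on the same libraries, this is a description and no separate support. Some settings, such as a fit of the 2 groups alone, leave the difference itself unchanged. Of 914 recomputed values, 847 stayed on the same side of the threshold, 54 lost the call and 13 gained it. A call could be lost only by the differences called in the main fit. Gclc against AOM/DSS lost it in 10 of 27 alternatives and Nqo1 against control in 14. Mgst2 lost it in 3 against AOM/DSS and in 11 against control, and Dio1 in AOM/DSS against control in 16. Fold changes of Me1 depend on the pseudocount, and genes of few reads are limited by depth. In AOM/DSS against control, 153 genes and 0 members were called; leaving out 1 library gave 53 to 201 genes and 0 to 0 members, a fit of the 2 groups alone 54 genes, library weights 288 genes and 1 member (Tkt), and the GC group covariate 238 and 1 (Me1). GC-rich libraries alone gave 7 genes and AT-rich alone 4. In curcumin against AOM/DSS, 130 genes and 1 member were called; leaving out 1 library gave 48 to 149 genes and 0 to 2 members, 2 groups alone 85 and 0, library weights 468 and 2, the GC group covariate 272 and 2, removal of the GC trend 234 and 2, GC-rich alone 8 and 0, and AT-rich alone 1 and 0. No filter and a common FPKM sum each gave 0 members. In curcumin against control, 17 genes and 1 member were called; leaving out 1 library gave 4 to 35 genes and 0 to 2 members, a pseudocount of 0.1 gave 11 and 0, no filter 7 and 0, library weights 491 and 3, the GC group covariate 40 and 2, removal of the GC trend 30 genes, no intensity trend 0 members, and GC-rich or AT-rich libraries alone 0 genes and 0 members. The causes were not tested. The titles share replicate numbers. Of 12 same-number pairs of libraries, 6 had a correlation of deviations over 0.1 (range -0.33 to 0.46). A library's own number was the closest in both other groups for 0 libraries. It was the closest in 1 of them for some, such as control replicate 0 for AOM/DSS replicate 0 (0.456). The numbers were not used as pairs in the main fit. The replicate block gave 82, 86 and 2 genes and 0, 0 and 0 members in the 3 comparisons. Its adjusted p in limma was 0.0691 for Gclc against AOM/DSS, and 0.125 for Nqo1 and 0.111 for Mgst2 against control.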
